A study of Mus musculus with 9 samples.

Results

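EBs exposed to silver nanoparticles were set against EBs left unexposed, using all 3 AgNP arrays and all 3 control arrays of the 9 arrays analysed here. EBs (embryoid bodies) are aggregates of embryonic stem cells that differentiate in suspension and form cells of the early germ layers. The AgNP arrays held RNA of EBs given citrate-coated AgNPs of 20 nm at 5.0 µg/ml for 24 h from day 3 of differentiation, and the control arrays RNA of EBs grown over the same 24 h without silver. A further 3 arrays of EBs given Ag+ (silver acetate) at 5.0 µg/ml for 24 h entered the shared estimate of spread and the comparison between the forms of silver. All EBs came from 1 mouse embryonic stem cell line (C57BL/6, adapted to culture without serum or feeder cells) and were formed in hanging drops in a basal medium without LIF and BMP-4, so the arrays describe that line only. GEO's labels call the cell type embryonic stem cell, although the RNA came from EBs. Each array carried 41345 probe sets, of which 25341 have a gene name in the platform's annotation, and a member here is any of these named probe sets.

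Markers of pluripotent cells, the primitive streak and visceral endoderm were detected in both groups, with a range of levels. Values are RMA log2 intensities, on which 1 unit is a doubling, and the median named probe set stood at 5.06. Nanog averaged 8.20 with AgNPs and 7.95 in controls, Mixl1, a primitive streak factor, 8.93 with AgNPs and 9.18 in controls, and Cubn, a receptor of visceral endoderm, 8.92 with AgNPs and 9.16 in controls. The naive pluripotency factor Esrrb, at 4.41 with AgNPs and 4.45 in controls, and the somite gene Meox1, at 4.96 with AgNPs and 4.41 in controls, stood under that median. Defining markers of other cell types lay low in both groups, with Ptprc (leukocytes) at 2.77 with AgNPs and 2.71 in controls, and Alb (hepatocytes) at 3.24 with AgNPs and 3.28 in controls. The macrophage-linked lysosomal gene Cd68 was the exception, at 7.25 with AgNPs and 7.09 in controls. In bulk RNA of this kind, fewer cells of a type and less RNA per cell cannot be told apart.

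The arrays of both groups were alike in overall shape. Array medians over named probe sets lay between 5.03 and 5.08, and any AgNP array correlated with any control array at 0.9921 to 0.9952 across probe sets, against 0.9946 to 0.9961 among AgNP arrays and 0.9939 to 0.9959 among control arrays. The first principal component of these 6 arrays did not separate the groups. AgNP replicates 2 and 3 scored -2.09 and 1.37, and control replicates 1 and 2 scored 4.23 and -4.22. AgNP replicate 1 (score 20.9) and control replicate 3 (score -20.2) lay at its opposite ends, so the counts are also given without both. The second component held 26.8% of the variance, against 29.7% for the first, and did separate the groups. On it the AgNP arrays scored 4.49, 11.5 and 11.9 and the control arrays -20.1, -10 and 2.17.

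Silver enters cells as particles or as ions, and ions bind the thiol groups of proteins. Cells meet such a load with 3 well known programmes. Misfolded protein releases the heat shock factor HSF1, which switches on chaperone genes through heat shock elements. Free metal activates MTF1, which switches on metallothioneins through metal response elements. Oxidised KEAP1 frees NRF2, which switches on glutathione and heme-degrading enzymes. In EBs of this age the same RNA also holds the patterning of mesoderm, in which BMP favours lateral and cardiac fates and WNT, FGF and Notch favour the paraxial mesoderm that forms somites.

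Of the 25341 named probe sets, 22 passed an adjusted p of 0.05 in the limma fit of 9 arrays (0.0868% of those tested), 9 of them higher with AgNPs (0.0355%) and 13 lower (0.0513%). The genes that rose were Hspa1b, Hspa1a, Nppb, Mt2, Dll1, Foxb1, Mt1, Fgf14 and Gm13080. The genes that fell were Tbx20, Capn6, Pdlim3, Stk32a, Prdm6, Vstm2b, Smad6, Selenow, Slc38a4, Zc3hav1, Pard6b, Ptpn13 and Gpx1. In each of the 22 the AgNP and control arrays did not overlap, a separation that 10.9% of all named probe sets showed. At a change of at least 1.5-fold with an unadjusted p under 0.05, the thresholds of the study's methods, 115 probe sets were named (0.454%), 45 higher (0.178%) and 70 lower (0.276%).

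**Figure D1:**
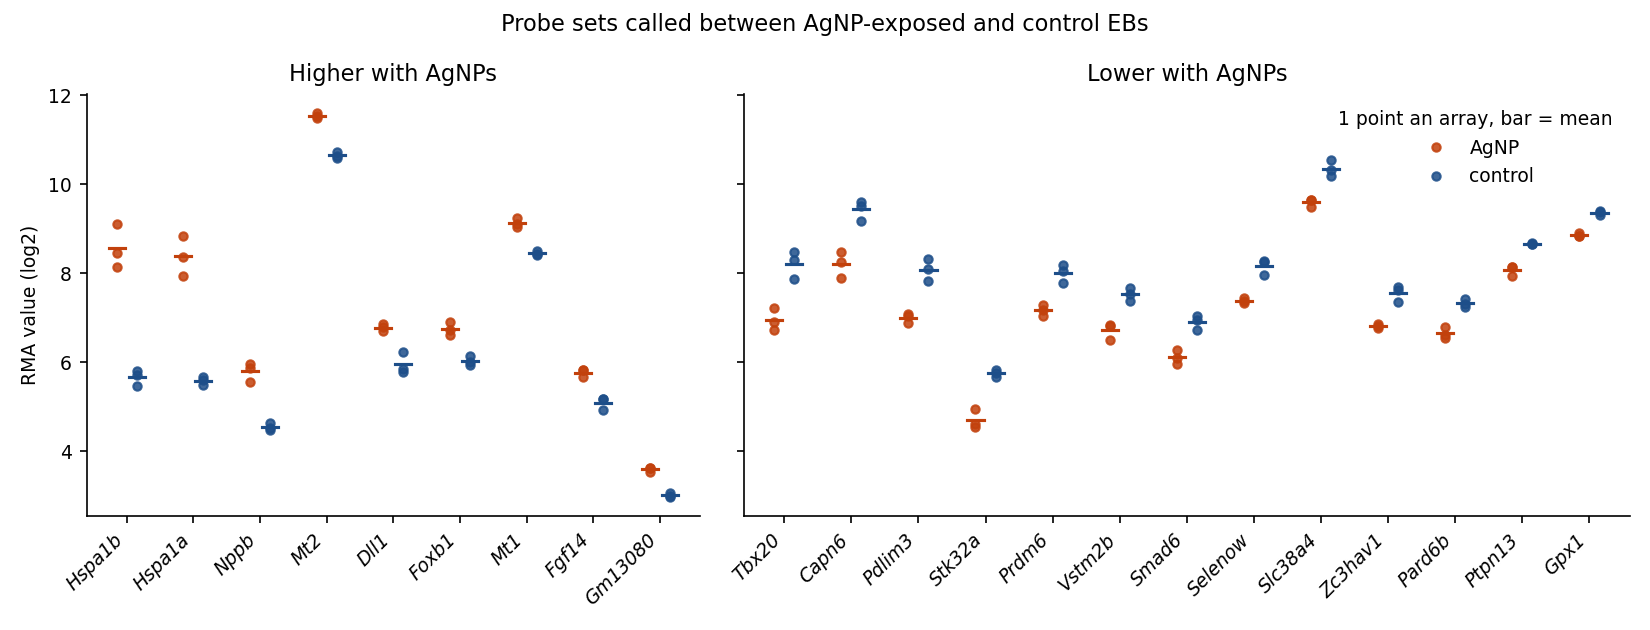
RMA values (log2) of the 22 called probe sets on each of the 3 AgNP arrays (orange) and 3 control arrays (blue), with bars at the group means. The 9 genes on the left rose and the 13 on the right fell with AgNPs, and in none do the arrays of the groups overlap. Hspa1b and Hspa1a stand apart with changes of 2.90 and 2.79.

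The spread of the Ag+ arrays is part of these calls. With the AgNP and control arrays alone, limma called 0 probe sets, while 1833 had an unadjusted p under 0.05, against 2140 with all 9 arrays. Hspa1a, Hspa1b and Mt2 were called in each of the 9 fits that left out 1 array. Nppb was called in 6 of them, its call being lost without AgNP replicate 2, control replicate 2 or control replicate 3. Stk32a and Gm13080 were called in 5 of the 9 fits, both being lost without AgNP replicate 1 or 2 and without control replicate 2 or 3. Mt1 kept its call in 3, Gpx1, Pard6b and Pdlim3 in 2, Foxb1 and Fgf14 in 0, and each of the other 10 in 1. Counted by array, 5, 3 and 6 of the 22 calls remained without AgNP replicate 1, 2 or 3, and 17, 3 and 5 without control replicate 1, 2 or 3. Without Ag+ replicate 1, 2 or 3, 6, 10 and 7 remained. A fit without both AgNP replicate 1 and control replicate 3 kept 4 of the 22, namely Hspa1a, Hspa1b, Mt2 and Nppb. No gene among the 22 changed direction in any of these fits, and the range of each fold change with 1 array left out is given below as its leave-one-out range.

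Both stress-inducible HSP70 genes rose more than any other named gene. HSP70 is an ATP-driven chaperone that refolds damaged protein, and Hspa1a and Hspa1b encode near-identical copies of the inducible form. Hspa1b stood at 8.14, 8.45 and 9.10 on the AgNP arrays, against 5.47, 5.81 and 5.71 on the control arrays. Hspa1a stood at 7.93, 8.37 and 8.84 on the AgNP arrays, against 5.67, 5.60 and 5.49 on the control arrays. The lowest AgNP array lay more than 2 log2 units above the highest control array for both genes, and AgNP replicate 3 was the highest array in both. The log2 fold changes were 2.90 ± 0.21 for Hspa1b (SE, adjusted p = 0.0013, leave-one-out range 2.63 to 3.11) and 2.79 ± 0.19 for Hspa1a (SE, adjusted p = 0.0011, leave-one-out range 2.56 to 3.02), or 7.46-fold and 6.93-fold. Another probe set, annotated to both genes, averaged 4.67 with AgNPs and 3.67 in controls and was not called. Because the genes are near-identical, a probe of one can bind RNA of the other, and the share of each in the rise is uncertain.

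The promoters of both genes are shown because the heat shock element is the letter pattern through which HSF1 acts. Each line gives the 250 bases before the RefSeq start (GRCm38.p6), 5′ to 3′ on the gene's own strand, with the core of a heat shock element (GAANNTTC or TTCNNGAA, each its own reverse complement) in capitals. Hspa1b lies at chr17:34959239-34959488 and Hspa1a at chr17:34972157-34972406, both on the minus strand.
Hspa1b: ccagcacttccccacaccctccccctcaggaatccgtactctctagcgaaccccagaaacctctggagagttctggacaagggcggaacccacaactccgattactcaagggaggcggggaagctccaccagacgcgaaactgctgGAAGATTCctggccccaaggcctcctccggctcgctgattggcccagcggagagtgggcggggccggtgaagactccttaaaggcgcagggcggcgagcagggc
Hspa1a: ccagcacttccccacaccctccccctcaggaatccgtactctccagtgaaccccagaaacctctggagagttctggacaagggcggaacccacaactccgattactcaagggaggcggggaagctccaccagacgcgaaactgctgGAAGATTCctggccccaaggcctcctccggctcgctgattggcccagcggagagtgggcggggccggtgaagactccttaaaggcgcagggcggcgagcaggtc
The windows differed at 3 of 250 bases (98.8% identical), and each held 1 match, 104 to 97 bases before the start. The pattern was in 12.8% of all 32851 promoter windows of that length in the RefSeq table. Of the called genes with a window, 2 of 7 higher genes (Hspa1a and Hspa1b) and 2 of 11 lower genes (Slc38a4 and Capn6) held it. A longer form of the element, with 3 units in a row where the core has 2, was also searched. It was in 0 of the 7 higher genes, Hspa1a and Hspa1b included, and in 0 of the 11 lower genes. Of all promoter windows, 0.466% held it. A match to the core is a description of the letters and not a binding site.

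The rest of the chaperone network stayed close to its control level. Of 16 HSP70-system genes measured, 2 rose, none fell and the median change was 0.02, against -0.01 over 22180 genes taken with 1 probe set each. Hspa8, the constitutive cytosolic HSP70, averaged 12.06 with AgNPs and 12.04 in controls (difference 0.03, 95% interval -0.09 to 0.14), and Hspa5, its endoplasmic reticulum relative, differed by 0.06 (-0.09 to 0.21). The exchange factors Hsph1 (0.11, unadjusted p = 0.26) and Bag3 (-0.15, unadjusted p = 0.048) and the HSP110 member Hspa4l (-0.13, unadjusted p = 0.27) were not called. Among 18 other chaperones linked to HSF1, none was called and the median change was -0.01. The 4 small heat shock proteins in that list had a median of 0.23, led by Hspb1 at 6.13 ± 0.11 with AgNPs and 5.85 ± 0.10 in controls (SD, n = 3 each), which gave an unadjusted p below 0.05 and an adjusted p of 0.47. Hspb8 differed by 0.19, Cryab by 0.28 and Hspb6 by 0.14, and the factor Hsf2 by -0.25, none of them called. Hsp90aa1, an inducible HSP90, differed by -0.05 (-0.19 to 0.09), and the HSP70 partner Dnajb1 by less than 0.01 (-0.20 to 0.19). Of all chaperone genes in both lists, the inducible HSP70 pair alone passed the adjusted threshold.

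Genes of the endoplasmic reticulum stress response showed 0 calls among 24 measured, with a median of -0.01. Atf3, a stress-induced repressor, had the smallest p of the list. It stood at 7.20, 7.45 and 7.59 on the AgNP arrays, against 6.81, 6.87 and 6.90 on the control arrays, a difference of 0.56 ± 0.09 (SE, adjusted p = 0.11). Chac1, which degrades glutathione downstream of ATF4, differed by 0.28 (adjusted p = 0.41). Ddit3, the death-linked factor CHOP, differed by 0.07 (-0.07 to 0.21), and Dnajc3, Sdf2l1 and Edem1, from the XBP1 and ATF6 branches, by -0.18, 0.14 and -0.10, so the list showed 1 gene with a change near 1.5-fold.

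Both widely expressed metallothioneins rose. Metallothioneins are small cysteine-rich proteins that hold zinc, copper, cadmium and silver through their thiols. Mt2 stood at 11.49, 11.53 and 11.60 on the AgNP arrays, against 10.59, 10.71 and 10.63 on the control arrays. Mt1 stood at 9.04, 9.10 and 9.25 on the AgNP arrays, against 8.49, 8.42 and 8.44 on the control arrays. The arrays of the groups lay well apart for both genes, with SDs within a group of 0.04 to 0.11. Mt2 rose by 0.90 ± 0.06 (SE, adjusted p = 0.0011, leave-one-out range 0.87 to 0.93), or 1.86-fold. Mt1 rose by 0.68 ± 0.07 (SE, adjusted p = 0.020, leave-one-out range 0.62 to 0.72), or 1.60-fold. Mt3, the brain form, differed by 0.02 (-0.18 to 0.23), and the sensor Mtf1 itself by -0.01 (-0.18 to 0.16).

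The promoters of the 2 genes are shown with the core of the metal response element, TGCGCNC or TGCACNC on either strand, in capitals. Each line again gives the 250 bases before the RefSeq start in GRCm38.p6, for Mt2 chr8:94172368-94172617 and for Mt1 chr8:94178839-94179088, both on the plus strand.
Mt2: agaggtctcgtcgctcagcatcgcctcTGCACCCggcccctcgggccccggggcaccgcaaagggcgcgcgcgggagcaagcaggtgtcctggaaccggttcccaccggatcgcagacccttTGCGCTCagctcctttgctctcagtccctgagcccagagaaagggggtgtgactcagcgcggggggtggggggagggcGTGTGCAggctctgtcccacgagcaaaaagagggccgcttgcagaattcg
Mt1: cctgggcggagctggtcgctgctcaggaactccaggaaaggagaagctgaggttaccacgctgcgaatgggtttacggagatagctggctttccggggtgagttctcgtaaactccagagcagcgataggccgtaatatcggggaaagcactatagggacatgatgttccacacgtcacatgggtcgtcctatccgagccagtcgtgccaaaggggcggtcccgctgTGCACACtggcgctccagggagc
The Mt2 window held 3 matches, at 223 to 217, 128 to 122 and 50 to 44 bases before the start, and the Mt1 window 1, at 23 to 17 bases. A further 1 match for Mt2 and 2 for Mt1 lay in the 50 bases after the start. The core was in 21.4% of all promoter windows, in 3 of 7 windowed genes called higher (Mt2, Mt1 and Dll1) and in 5 of 11 called lower, and so was common on both sides.

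The measured carriers of other metals showed no call. Of 26 genes for metallothioneins and metal transport, 2 rose, none fell, and the median was -0.03. Slc30a1 and Slc30a10, listed as zinc transporters, and Ftl1, listed for iron handling, were not measured. Beyond Mt1 and Mt2, 3 members were lower and 1 higher at an unadjusted p under 0.05, beside 4.44% and 4.01% of all named probe sets. Slc39a10, a zinc importer, stood at 8.72 ± 0.05 with AgNPs and 8.90 ± 0.06 in controls (SD, n = 3 each), a difference with an adjusted p of 0.46. Slc40a1, the iron exporter ferroportin, differed by -0.33 (adjusted p = 0.50) and Tfrc, the transferrin receptor, by -0.20 (adjusted p = 0.53). The higher one was Slc39a14, another zinc importer, which differed by 0.18 (adjusted p = 0.55) with groups that did not overlap.

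NRF2 targets were not called at the adjusted threshold, although the leading ones all lay above control. Of 23 measured, 0 were called in either direction, 5 were higher at an unadjusted p under 0.05 and 0 lower, beside 4.01% and 4.44% of all named probe sets, and the median was 0.02. Hmox1, which degrades heme, stood at 8.37, 8.37 and 8.97 on the AgNP arrays, against 7.66, 7.73 and 7.78 on the control arrays. AgNP replicate 3 was the highest, as for the HSP70 genes, and the difference of 0.85 ± 0.16 (SE, adjusted p = 0.16) was 1.80-fold. Gclm, a subunit of the enzyme that limits glutathione synthesis, differed by 0.23, Srxn1, which repairs peroxiredoxins, by 0.30, and the glutathione transferases Gstm1 and Gsta4 by 0.27 and 0.24. In these 4 genes the AgNP and control arrays did not overlap, and their adjusted p lay between 0.33 and 0.46. Nqo1, a classic NRF2 target, stood low at 4.22 with AgNPs and 4.27 in controls (difference -0.05, -0.23 to 0.13). Enzymes that remove superoxide and peroxide directly showed 0 calls among 7, with Prdx3 at -0.19, Sod1 at 0.13, Cat at -0.03 and Sod2 at -0.05.

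Of 26 measured genes in the selenoprotein list, 2 fell and 0 rose. Selenoproteins carry selenocysteine in place of cysteine at the active site, and silver binds selenium tightly. Gpx1, the cytosolic glutathione peroxidase, stood at 8.84, 8.84 and 8.90 on the AgNP arrays, against 9.31, 9.37 and 9.40 on the control arrays. Selenow, a small thioredoxin-like selenoprotein, stood at 7.45, 7.37 and 7.34 on the AgNP arrays, against 8.27, 8.24 and 7.96 on the control arrays. Gpx1 fell by 0.50 ± 0.06 (SE, adjusted p = 0.024, leave-one-out range -0.53 to -0.48) and Selenow by 0.77 ± 0.10 (SE, adjusted p = 0.040, leave-one-out range -0.87 to -0.71). Selenoh, a nucleolar selenoprotein, averaged 7.24 ± 0.045 with AgNPs and 7.66 ± 0.19 in controls (SD, n = 3 each) and came next, with an adjusted p of 0.23. The lower members were not joined by the whole class, since the median of the list was -0.02, Gpx4 differed by 0.03 (-0.10 to 0.16), Gpx3 by -0.01 (-0.17 to 0.15), and the mitochondrial reductase Txnrd2 by 0.14. Sephs2, which makes the selenium donor and is itself a selenoprotein, lay above control by 0.31 (adjusted p = 0.51).

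**Figure D2:**
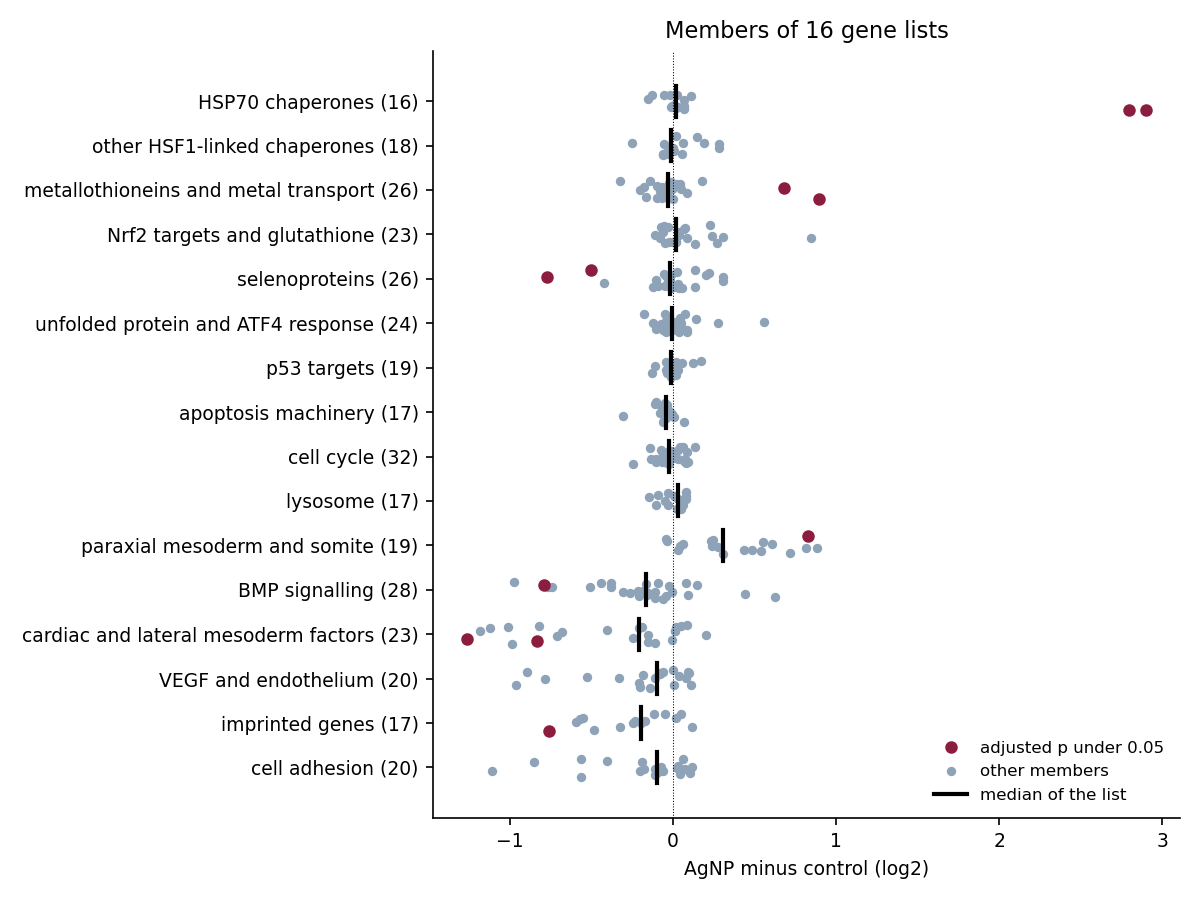
Log2 difference, AgNP minus control, of each measured member of 16 gene lists (points, with the number of members in brackets) and the median of each list (black bar). Dark red points passed an adjusted p of 0.05; the HSP70 pair lies far right of an otherwise narrow list, while the median of the paraxial mesoderm list lies right of 0 (0.31) and that of the cardiac list left of it (-0.21).

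Genes of death, damage and division stayed near their control level. Of 19 p53 targets measured, 0 were called and 0 had an unadjusted p under 0.05. Cdkn1a, the cell cycle inhibitor p21, averaged 9.15 ± 0.07 with AgNPs and 9.02 ± 0.19 in controls (SD, n = 3 each), a difference of 0.12 (-0.08 to 0.33), and Xpc, Perp, Polk and Mdm2 differed by -0.13, 0.17, -0.11 and -0.02. Among 17 genes of the apoptosis machinery, 0 were called, and the initiator caspase Casp8 had the smallest p, at 6.89 ± 0.07 with AgNPs and 7.19 ± 0.08 in controls (SD, n = 3 each, adjusted p = 0.26). Bcl2l11 and Casp9, which promote death, both differed by -0.11, and Mcl1, which opposes it, by -0.06. Of 16 DNA damage genes and 32 cell cycle genes, 0 were called in either list, with Atm at -0.21 and Chek1 at -0.15 in the first, and Mcm5 at 0.14, Mki67 at -0.14 and Top2a at -0.11 in the second. Their medians were -0.05 and -0.02, and all members lay between -0.25 and 0.14, so none reached 1.5-fold.

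Routes by which particles enter and are digested showed no call either. Among 17 lysosome genes, 0 were called and all changes lay between -0.15 and 0.08, with Lamp1 at 0.08, Npc1 at -0.15 and Npc2 at -0.09. Of 21 endocytosis genes, 0 were called. At an unadjusted p under 0.05, 4 were lower and 0 higher, beside 4.44% and 4.01% of all named probe sets. The lower ones were led by Eea1, a tether of early endosomes, at 6.41 ± 0.03 with AgNPs and 6.70 ± 0.11 in controls (SD, n = 3 each, adjusted p = 0.40), then Igf2r at -0.13, Dab2 at -0.20 and Cavin2 at -0.24. Among 11 autophagy genes, 0 were called, and Gabarapl1, which coats forming autophagosomes, led with a difference of 0.31 (adjusted p = 0.34), before the cargo receptor Sqstm1 at 0.11. Genes of the respiratory chain (17), the proteasome (12) and translation (11) had 0 calls each, with medians of 0.02, 0.01 and 0.02 and members between -0.15 and 0.14.

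Inflammatory genes had 0 calls among 18, with Il6 and Tnf under the median named probe set in both groups, at 2.43 and 4.05 with AgNPs and 2.38 and 4.01 in controls. Nfkbia differed by -0.33 and Cxcl1 by 0.27, neither called. Among 13 interferon-linked genes 1 fell, the antiviral RNA-binding protein Zc3hav1. It stood at 6.81, 6.86 and 6.78 on the AgNP arrays, against 7.63, 7.68 and 7.34 on the control arrays, a fall of 0.74 ± 0.09 on the log2 scale (SE, adjusted p = 0.038, leave-one-out range -0.84 to -0.67). Irf1 differed by -0.30 (adjusted p = 0.49) and Isg15 by 0.24, and no other member passed the test. Immediate early genes had 0 calls among 17 and a median of -0.08, with Klf4 at -0.34, Myc at -0.39, Klf6 at -0.24 and Nr4a1 at -0.19. At an unadjusted p under 0.05, 4 of the 17 were lower and 0 higher, beside 4.44% and 4.01% of all named probe sets.

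Genes of the paraxial mesoderm, the tissue that segments into somites, lay mostly above control. Of 19 measured, 1 was called higher and 0 lower. At an unadjusted p under 0.05, 10 were higher and 0 lower, beside 4.01% and 4.44% of all named probe sets. In 12 all AgNP arrays lay above all control arrays, which 4.84% of all named probe sets did. The median was 0.31, against -0.01 over all genes. This list and the cardiac one below were chosen with earlier results of these data known, so their counts are not a test. The summed linear level of the label check's marker set, in log2, (Tbx6, Msgn1, Meox1 and Tcf15) lay between 8.18 and 8.53 with AgNPs and between 7.64 and 7.90 in controls.

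Dll1, the Notch ligand of the segmentation clock, stood at 6.69, 6.85 and 6.78 on the AgNP arrays, against 6.23, 5.84 and 5.77 on the control arrays. It rose by 0.82 ± 0.11 (SE, adjusted p = 0.040, leave-one-out range 0.74 to 0.97), or 1.77-fold. Tbx6, which sets presomitic identity, stood at 6.71, 6.89 and 7.10 on the AgNP arrays, against 6.31, 6.32 and 6.25 on the control arrays, and with a difference of 0.61 ± 0.09 (SE) it missed the threshold at an adjusted p of 0.081. Lfng, which modifies Notch in the clock, differed by 0.31 ± 0.05 (SE, adjusted p = 0.13), and the presomitic genes Msgn1, Hes7 and Dll3 by 0.54, 0.43 and 0.49. Among somite genes, Foxc2 stood at 6.91, 7.31 and 7.51 on the AgNP arrays, against 6.52, 6.40 and 6.16 on the control arrays (0.88 ± 0.17, SE, adjusted p = 0.16). Its relative Foxc1 differed by 0.72 (adjusted p = 0.30) and the protocadherin Pcdh19 by 0.82 (adjusted p = 0.26). The later somite genes Meox1 and Tcf15, at 0.55 and 0.27, varied more between arrays (adjusted p = 0.67 and 0.73). In Dll1, Tbx6, Lfng, Foxc2, Foxc1 and Pcdh19 alike, the AgNP and control arrays did not overlap.

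Of the pathways that guide this tissue, the FGF list held 1 call and the Notch, WNT and retinoid lists held 0. Fgf14, a non-secreted member of the FGF family known from neurons, stood at 5.66, 5.82 and 5.82 on the AgNP arrays, against 4.92, 5.17 and 5.16 on the control arrays. It rose by 0.68 ± 0.09 (SE, adjusted p = 0.040, leave-one-out range 0.60 to 0.73). Of the other 19 FGF genes none was called. The secreted ligands Fgf10 (-0.48, adjusted p = 0.16) and Fgf3 (-0.44, adjusted p = 0.20) and the receptor Fgfr2 (-0.64, adjusted p = 0.36) lay below control, and the feedback phosphatase Dusp6 above it by 0.27. Among 15 Notch genes besides those of the clock 0 were called, with Notch1 at 0.31, Mfng at 0.31 and Notch3 at -0.17. Among 30 WNT genes 0 were called, with Wnt8a at 0.66, Fzd2 at 0.29, Wnt3a at 0.26 and Sp8 at 0.17 above control and Daam2 at -0.64 below it. Aldh1a2, which makes retinoic acid in the somites, stood at 7.22, 7.97 and 8.38 on the AgNP arrays, against 6.27, 6.57 and 7.11 on the control arrays. All AgNP arrays lay above all control arrays, but the arrays of each group spread widely. In both groups the values rose from replicate 1 to 3, as they did with Ag+ (8.52, 8.87 and 9.26). The difference of 1.21 ± 0.31 (SE) had an adjusted p of 0.33 in the main fit, which holds no replicate term. The other retinoid genes had 0 calls among 13, with the enzymes Rdh10 and Aldh1a1 at 0.25 and 0.32 and the retinol receptor Stra6 at 0.44.

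Foxb1, a forkhead factor of the early neural plate, stood at 6.91, 6.73 and 6.60 on the AgNP arrays, against 6.14, 5.95 and 6.00 on the control arrays, and rose by 0.72 ± 0.10 (SE, adjusted p = 0.040, leave-one-out range 0.64 to 0.79). It was 1 of 15 early neural genes, whose median was 0.04. Irx3 came next at 0.42 (adjusted p = 0.36), and Zic1 differed by -0.28 (adjusted p = 0.49). Nkx1-2, of the caudal epiblast, differed by 0.57 (adjusted p = 0.28) in a primitive streak list with 0 calls among 12. The Hox genes had 0 calls among 23, and Hoxb1 and Hoxb3, at 0.56 and 0.43, had the smallest p.

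**Figure D3:**
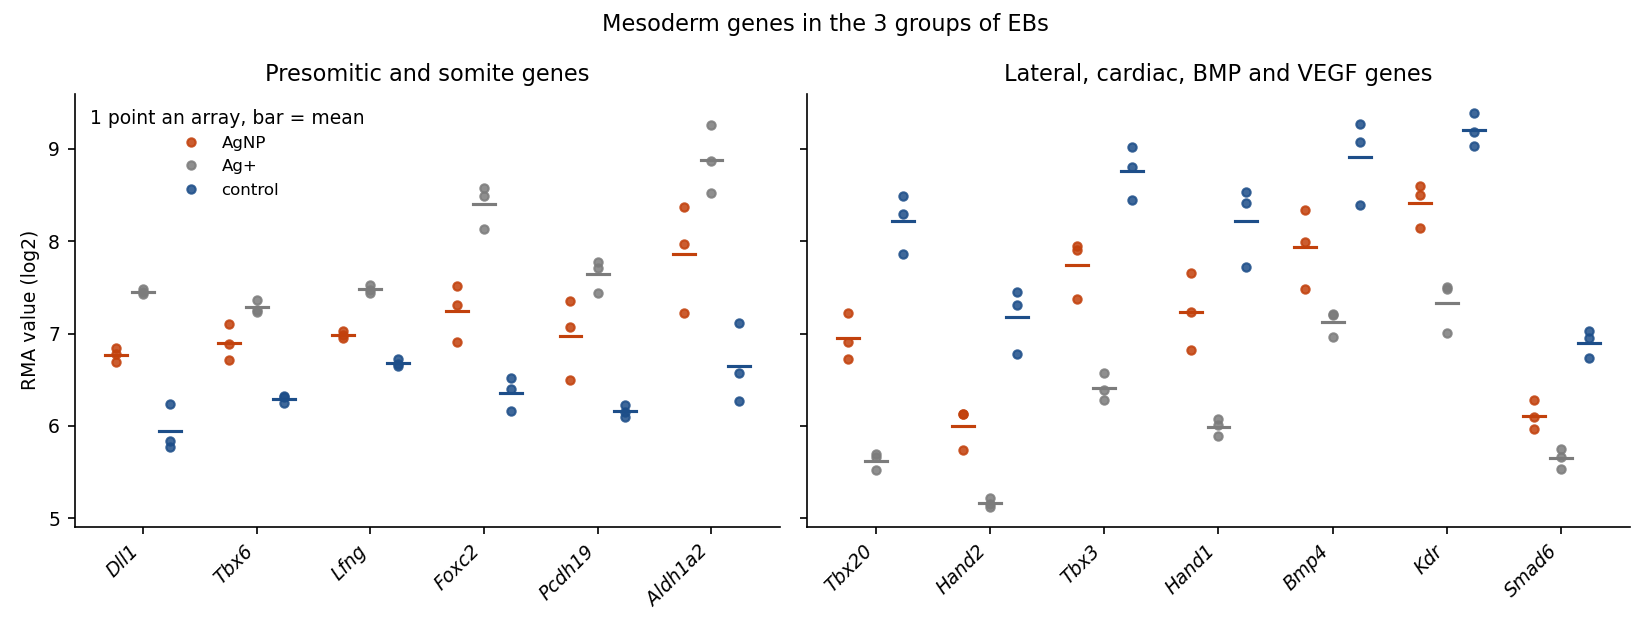
RMA values (log2) of 6 presomitic, somite and retinoid genes (left) and 7 lateral mesoderm, BMP and VEGF genes (right) on the 3 AgNP arrays (orange), 3 Ag+ arrays (grey) and 3 control arrays (blue), with bars at the means. In all 13 genes the AgNP mean lies between the Ag+ mean and the control mean, above control on the left and below it on the right.

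Factors of the cardiac and lateral mesoderm lay mostly below control. Of 23 measured, 2 fell and 0 rose. At an unadjusted p under 0.05, 12 were lower and 0 higher, beside 4.44% and 4.01% of all named probe sets. In 11 all AgNP arrays lay below all control arrays, beside 6.09% of all named probe sets. The median was -0.21, and it lay between -0.68 and -0.16 under the other settings. The setting with a mean of at least 5 leaves out 6 of the 23 members, so its median covers a smaller list. The -0.68 end equals the main-fit difference of 1 member, Tmem88. On the same scale, the cardiac markers of the label check (Hand1, Tbx20, Gata4 and Mesp1) summed to 8.74 to 9.14 with AgNPs and 9.54 to 9.93 in controls. In both groups this sum rose from replicate 1 to 3, and the main fit holds no replicate term.

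Tbx20, a T-box factor of the heart field, stood at 6.72, 6.91 and 7.23 on the AgNP arrays, against 7.86, 8.29 and 8.49 on the control arrays. It fell by 1.26 ± 0.17 on the log2 scale (SE, adjusted p = 0.040, leave-one-out range -1.44 to -1.13), or 2.40-fold, which was the largest fall of all. Prdm6, a smooth muscle chromatin factor, stood at 7.03, 7.18 and 7.29 on the AgNP arrays, against 7.78, 8.18 and 8.04 on the control arrays, and fell by 0.83 ± 0.11 (SE, adjusted p = 0.040, leave-one-out range -0.95 to -0.74). Hand2 just missed the threshold, at 5.74, 6.13 and 6.13 on the AgNP arrays, against 6.78, 7.45 and 7.31 on the control arrays (-1.18 ± 0.17, SE, adjusted p = 0.051). Its relative Hand1 differed by -0.99 (adjusted p = 0.29), the homeodomain factor Msx2 by -1.12 (adjusted p = 0.23), Tbx3 by -1.01 (adjusted p = 0.13) and the WNT inhibitor Tmem88 by -0.68 (adjusted p = 0.14). In each of these 7 genes the arrays of the groups did not overlap. Gata4, which acts earlier and also in endoderm, differed by -0.41 (adjusted p = 0.22).

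Of 19 contractile and smooth muscle genes 1 fell, and the median was -0.09. At an unadjusted p under 0.05, 4 were lower and 0 higher, beside 4.44% and 4.01% of all named probe sets. The gene that fell was Pdlim3, which links actinin to the sarcomere's Z-line and is made early in muscle. It stood at 7.05, 6.87 and 7.08 on the AgNP arrays, against 7.82, 8.31 and 8.10 on the control arrays, and fell by 1.07 ± 0.13 (SE, adjusted p = 0.031, leave-one-out range -1.20 to -0.96). Tpm1, Csrp1, Tnnt2 and Myl4 differed by -0.32, -0.26, -0.30 and -0.09.

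The natriuretic peptide gene Nppb rose. Nppb encodes BNP, a hormone that heart muscle releases under stretch and whose gene is a standard marker of stressed myocytes. It stood at 5.56, 5.87 and 5.96 on the AgNP arrays, against 4.64, 4.51 and 4.48 on the control arrays. The rise was 1.25 ± 0.11 (SE, adjusted p = 0.0072, leave-one-out range 1.17 to 1.37), or 2.38-fold. Of the other 12 natriuretic and vasoactive genes none was called. Its sister Nppa differed by 0.06 (-0.16 to 0.28), and Nppc by -0.03 (-0.26 to 0.20). The receptors Npr1 and Npr3 differed by -0.21 and 0.22, the receptor partner Ramp2 by 0.25 and the processing protease Furin by -0.16.

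The BMP pathway, which lateral mesoderm depends on, held 1 call among 28 genes. Smad6, an inhibitor that BMP itself induces, stood at 6.09, 5.96 and 6.28 on the AgNP arrays, against 6.73, 6.95 and 7.03 on the control arrays, and fell by 0.79 ± 0.11 (SE, adjusted p = 0.040, leave-one-out range -0.88 to -0.72). Smad7, with the same role, differed by -0.74 ± 0.11 (SE, adjusted p = 0.075). The ligands Bmp4 (7.48, 7.99 and 8.33 with AgNPs, against 8.40, 9.08 and 9.27 in controls), Bmp2 and Bmp5 differed by -0.98, -0.44 and -0.77, with adjusted p of 0.32, 0.11 and 0.14. The antagonist Chrd lay above control by 0.44 ± 0.07 (SE, adjusted p = 0.075), and the antagonist Fst by 0.63 (adjusted p = 0.50), while the modulator Bmper differed by -0.51 (adjusted p = 0.19). Of the 28, 10 were lower and 2 higher at an unadjusted p under 0.05, beside 4.44% and 4.01% of all named probe sets. Both higher ones were secreted antagonists, and the median was -0.16.

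Genes of blood vessels and blood showed 0 calls among 20 and 12. Kdr, the main VEGF receptor and a marker of vascular and cardiac progenitors, stood at 8.15, 8.49 and 8.60 on the AgNP arrays, against 9.19, 9.39 and 9.03 on the control arrays (-0.79 ± 0.16, SE, adjusted p = 0.20). Its co-receptor Nrp1 differed by -0.89 (adjusted p = 0.12), the endothelial RhoGAP Stard8 by -0.96 (adjusted p = 0.27), Vegfc by -0.33 and Etv2 by -0.19. In Kdr, Nrp1, Stard8 and Etv2 the groups did not overlap. Runx1, which starts blood formation, differed by -0.54 (adjusted p = 0.23), and Pdgfrb and Rgs5, marker genes of pericytes, by -0.60 and -0.90 (adjusted p = 0.40 for both).

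Cell contact genes held 1 call. Of 20 adhesion genes 0 were called, and the median was -0.10. At an unadjusted p under 0.05, 6 were lower and 0 higher, beside 4.44% and 4.01% of all named probe sets. Over all 58 cadherin and protocadherin genes 6 were lower and 3 higher at that p, Pcdh19 among the higher ones. Cdh11, a mesenchymal cadherin, stood at 7.26, 7.71 and 7.88 on the AgNP arrays, against 8.40, 8.74 and 9.04 on the control arrays (-1.11 ± 0.19, SE, adjusted p = 0.12). L1cam, Cdh6, Pcdh18 and Pcdh7 differed by -0.86, -0.57, -0.56 and -0.40, the first with an adjusted p of 0.078. Pard6b, a partner of atypical protein kinase C in cell polarity, stood at 6.79, 6.55 and 6.61 on the AgNP arrays, against 7.23, 7.30 and 7.43 on the control arrays. It fell by 0.67 ± 0.08 (SE, adjusted p = 0.031, leave-one-out range -0.74 to -0.62), the 1 call among 12 junction and polarity genes, and Cgnl1, a junction protein close to cingulin, differed by -0.63 (adjusted p = 0.11), before Tjp1 at -0.18, Cgn at -0.17 and Pard3 at -0.10. Ptpn13, a large tyrosine phosphatase with PDZ domains, stood at 7.94, 8.13 and 8.14 on the AgNP arrays, against 8.66, 8.67 and 8.65 on the control arrays, and fell by 0.59 ± 0.07 (SE, adjusted p = 0.031, leave-one-out range -0.63 to -0.53). Pmp22, a junction-associated membrane protein known from myelin, differed by -0.94 (adjusted p = 0.16). Of the 7 genes of the transition from epithelium to mesenchyme 0 were called, with Foxq1 at -0.72 (adjusted p = 0.14), Snai2 at -0.60, Vim at -0.24, Zeb1 at -0.12 and Snai1 at 0.18.

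Imprinted genes, which are read from 1 parental copy and many of which control growth, held 1 call among 17 and a median of -0.20. Slc38a4, an amino acid carrier read from the paternal copy, stood at 9.49, 9.64 and 9.64 on the AgNP arrays, against 10.18, 10.31 and 10.54 on the control arrays. It fell by 0.76 ± 0.09 (SE, adjusted p = 0.031, leave-one-out range -0.84 to -0.66). Mest differed by -0.59 (adjusted p = 0.20), Peg3 by -0.32 (0.28), Igf2 by -0.57 (0.50) and Peg10 by -0.49 (0.43), each adjusted p in brackets. In all, 10 of the 17 were lower and 0 higher at an unadjusted p under 0.05, beside 4.44% and 4.01% of all named probe sets. Of the 10 paternally expressed genes 7 were among these (median -0.28), and of the 7 maternally expressed ones 3 (median -0.05, the lowest at -0.55). The maternally expressed H19 has no probe set of its own, and the probe set shared by H19 and Mir675 averaged 5.77 with AgNPs and 6.47 in controls (-0.70, adjusted p = 0.16), with groups that did not overlap.

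Capn6, a calpain without protease activity that steadies microtubules, stood at 7.89, 8.24 and 8.48 on the AgNP arrays, against 9.18, 9.52 and 9.60 on the control arrays. It fell by 1.23 ± 0.16 (SE, adjusted p = 0.039, leave-one-out range -1.37 to -1.07), or 2.35-fold. Capn5 differed by -0.40 (adjusted p = 0.14) and Capn2 by 0.11 in a list with no other call among 9. Stk32a, a kinase whose role is little studied, stood at 4.54, 4.60 and 4.96 on the AgNP arrays, against 5.77, 5.82 and 5.66 on the control arrays, and fell by 1.05 ± 0.11 (SE, adjusted p = 0.012, leave-one-out range -1.18 to -0.97). Its AgNP level lay under the median named probe set. Vstm2b, a membrane protein of the immunoglobulin family, stood at 6.49, 6.83 and 6.81 on the AgNP arrays, against 7.38, 7.66 and 7.54 on the control arrays, and fell by 0.81 ± 0.10 (SE, adjusted p = 0.039, leave-one-out range -0.89 to -0.70). Gm13080, a predicted gene, stood at 3.63, 3.61 and 3.53 on the AgNP arrays, against 3.07, 2.98 and 2.99 on the control arrays, and rose by 0.58 ± 0.06 (SE, adjusted p = 0.012, leave-one-out range 0.56 to 0.61), the one call in the lowest of 5 signal classes. The remaining large differences were not called. Morc4, a chromatin ATPase, differed by -1.02 (adjusted p = 0.11) and Spin2c, of the spindlin family, by -0.98 (adjusted p = 0.11).

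Of the 70 probe sets lower by at least 1.5-fold at an unadjusted p under 0.05, 10 lay on the X chromosome, which held 946 of the 23328 probe sets with a known chromosome. Capn6, Morc4, Spin2c, Stard8 and L1cam were among them, and Irs4, an insulin receptor adaptor (-0.71), and Rps6ka6, a kinase of the ERK route (-0.73), too. The median of all X-linked probe sets was -0.0004, beside -0.0082 over all, and 2 of the 45 higher probe sets were X-linked, Pcdh19 and Apln.

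**Figure D4:**
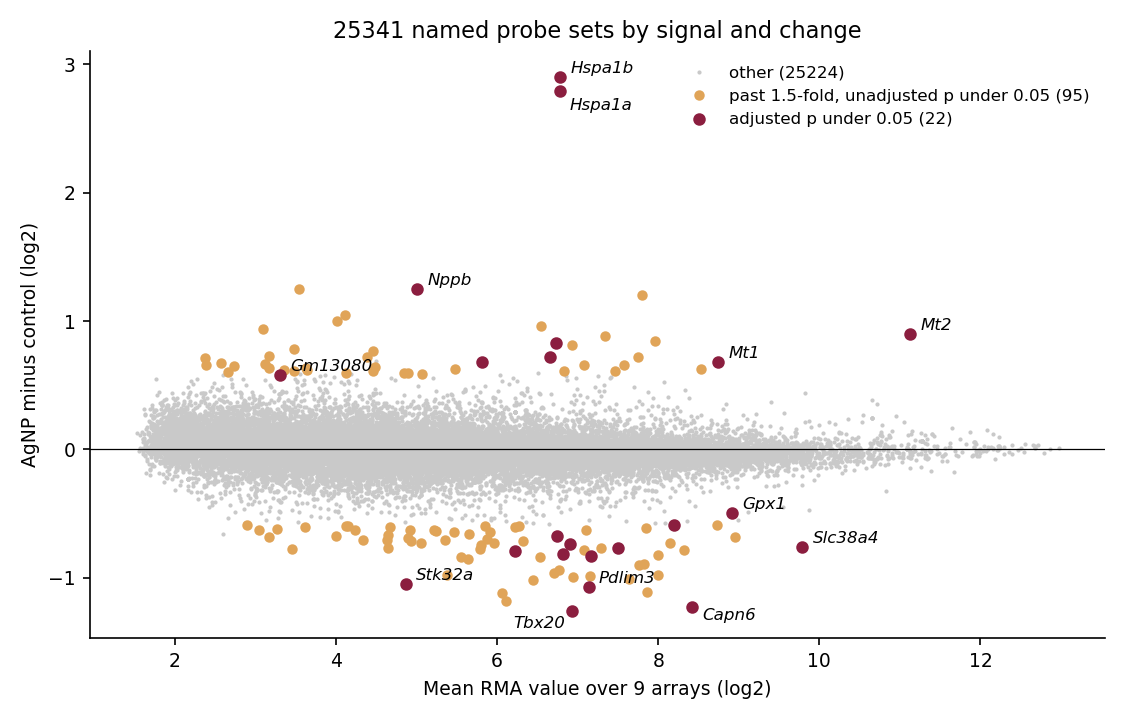
Log2 difference, AgNP minus control, against the mean RMA value over the 9 arrays for the 25341 named probe sets. The 22 called probe sets are dark red and those past 1.5-fold at an unadjusted p under 0.05 but not called are sand; most called genes have a mean value above 5, and many of the other higher probe sets lie below it.

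Many of the larger rises that were not called came from probe sets with little signal. Of the 45 rises of at least 1.5-fold, 24 had a mean RMA value under 5 and 12 were olfactory, vomeronasal or related chemosensory receptors, against 19 under 5 and 5 such receptors among the 70 falls. Vmn1r148, a vomeronasal receptor, stood at 4.69, 3.72 and 4.22 on the AgNP arrays, against 2.82, 3.22 and 2.84 on the control arrays, a difference of 1.25 (adjusted p = 0.12). Vmn2r17 differed by 0.73 (adjusted p = 0.58) and the microRNA genes Mir101c and Mir3961 by 1.05 (adjusted p = 0.16) and 0.72 (adjusted p = 0.39). Over whole families the median was 0.06 for 1105 olfactory receptors, 0.08 for 289 vomeronasal receptors, 0.11 for 73 small nucleolar RNA genes and -0.04 for 370 zinc finger genes named Zfp, and after the centring described next these medians were 0.09, 0.11, 0.14 and -0.01. Of these families only the snoRNA genes had a high signal (median 8.15, the others 2.55, 2.32 and 5.80), and in 19 of the 73 all AgNP arrays lay above all control arrays and in 2 below, beside 4.84% and 6.09% of all named probe sets.

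Direction followed the signal level over the whole array. With the probe sets split into 5 equal classes by mean signal, 391 probe sets of the lowest class had all AgNP arrays above all control arrays and 116 the reverse, whereas in the highest class the counts were 202 and 573. The median difference was 0.04 in the lowest class and -0.03 in the highest. After the arrays were given a common median over probe sets whose mean was 5 or more, every difference shifted up by 0.03, so that the counts became 639 and 71 in the lowest class and 445 and 394 in the highest, and the balance in the highest class turned. Since centring adds the same amount to every difference and sets the balance of the well expressed probe sets near 0, these counts do not tell which scaling is right. The median shifts are small beside the called changes, which were at least 0.50 in size.

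**Figure D5:**
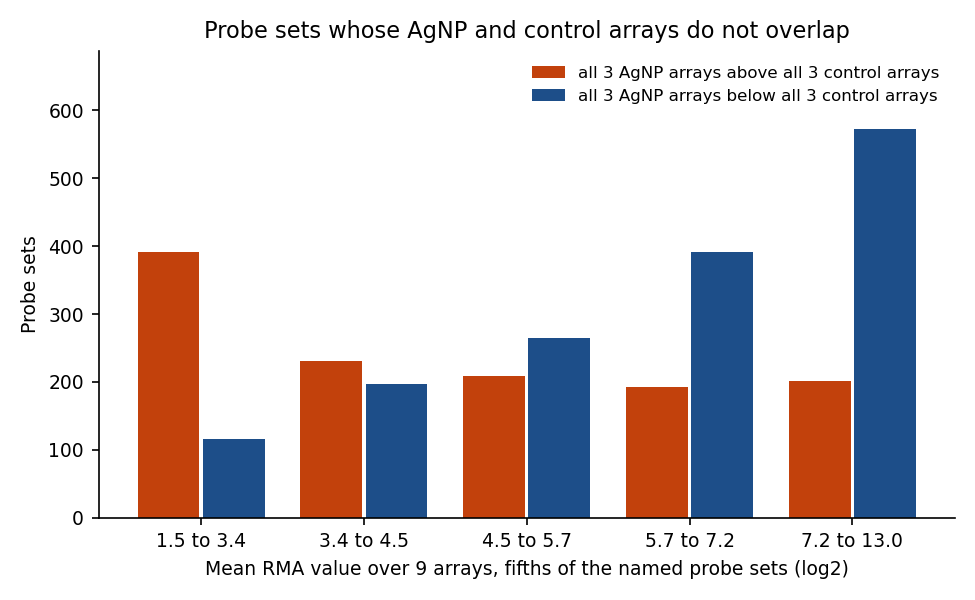
Number of named probe sets in each of 5 equal classes of mean RMA value in which all 3 AgNP arrays lay above (orange) or below (blue) all 3 control arrays, in the deposited values. The orange bars are taller in the lowest class (391 against 116) and the blue ones in the highest (202 against 573), where the balance turned after centring (445 against 394).

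The form of silver was tested directly for the 22 called genes, in the contrast of AgNP minus Ag+ of the same fit, which called 0.363% of all named probe sets in favour of AgNPs and 0.146% in favour of Ag+. The 22 were chosen through the same 3 AgNP arrays and the same estimate of spread. How many of them pass is therefore not comparable with these shares. Of the 22, 8 were higher with AgNPs than with Ag+, 2 were lower and 12 did not pass the test. These 10 became 4 without Ag+ replicate 2, Ag+ replicate 3 or AgNP replicate 2, 5 without Ag+ replicate 1 or AgNP replicate 3, and 6 without AgNP replicate 1 or control replicate 2. Hspa1b averaged 8.56 with AgNPs, 6.10 with Ag+ and 5.66 in controls, and differed between the forms by 2.46 (95% interval 1.99 to 2.93, adjusted p = 0.0019). Hspa1a averaged 8.38 with AgNPs, 6.36 with Ag+ and 5.59 in controls (2.03, 1.60 to 2.45, adjusted p = 0.0026). Nppb averaged 5.80 with AgNPs, 4.68 with Ag+ and 4.54 in controls (1.12, 0.86 to 1.37, adjusted p = 0.0036). Between Ag+ and control, Hspa1a differed by 0.77, Hspa1b by 0.44 and Nppb by 0.13, none past an adjusted p of 0.05. Mt2 differed between Ag+ and control by 0.55 and passed that test (adjusted p = 0.0018), and Mt1 differed by 0.19 (adjusted p = 0.29). Mt2 was 0.35 higher with AgNPs than with Ag+ (adjusted p = 0.044), at a mean of 11.54 with AgNPs, 11.19 with Ag+ and 10.64 in controls, and Mt1 was 0.49 higher (adjusted p = 0.033), at a mean of 9.13 with AgNPs, 8.64 with Ag+ and 8.45 in controls.

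For the genes that fell, the Ag+ mean lay lower still in all 13. Tbx20 averaged 6.95 with AgNPs, 5.63 with Ag+ and 8.21 in controls, and the 1.33 between the forms passed the test (0.95 to 1.70, adjusted p = 0.012), as did the 0.85 for Prdm6 (adjusted p = 0.017) and the 0.32 for Gpx1 (adjusted p = 0.049). For Slc38a4 the forms differed by 0.16 (-0.05 to 0.37, adjusted p = 0.71) and for Ptpn13 by 0.21 (0.05 to 0.37, adjusted p = 0.42), and the other 8 had adjusted p between 0.072 and 0.24. Dll1 and Fgf14 were lower with AgNPs than with Ag+, with differences of -0.68 (adjusted p = 0.039) and -0.83 (adjusted p = 0.0054). Both stood highest with Ag+, at 7.46 and 6.59. Foxb1 differed between the forms by -0.43 (adjusted p = 0.14) and Gm13080 by 0.28 (adjusted p = 0.10). Hmox1 and Atf3, not called against control, were also higher with AgNPs than with Ag+, Hmox1 by 0.97 (adjusted p = 0.045) and Atf3 by 0.76 (adjusted p = 0.010).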

How the data were processed

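RNA of 9 EB samples (3 AgNP, 3 Ag+, 3 control) was hybridised to Affymetrix Mouse Gene 2.0 ST arrays. The deposited log2 values were made by the authors with RMA in Affymetrix Expression Console 1.3 (background correction, quantile normalisation and summary per probe set), which holds the arrays to a common distribution, so a shift of all RNA would not show. Of 41345 probe sets, 25341 have a gene name in the platform's annotation (23521 with 1 gene, 1820 with several). Symbols were updated, and chromosomes and promoters taken, from RefSeq tables of GRCm38.p6.

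Group means were fitted on all 9 arrays with limma 3.58.1 in R 4.3.3, and p-values were adjusted (Benjamini-Hochberg) over the 25341 probe sets. A call is an adjusted p under 0.05. The labels give 3 biological replicates a group but not whether they are separate cultures, so p-values measure the spread between these samples. The text names every called gene, the 15 largest rises and 15 largest falls past 1.5-fold with groups that did not overlap, and in each list described up to 5 members of smallest p and the first of each role. Lists were chosen with earlier results of these data known, and other genes named were chosen after their values were seen. Settings tried were the 2-group fit, a replicate block, trended and robust priors, array weights, a signal minimum of 5, unnamed probe sets included, centred arrays, each array left out, 2 arrays left out together and the methods' t-test. The fits were tested on simulated data. Ag+ arrays at other doses were not analysed here.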

Additional observations from a re-analysis of the deposited data

How the results depend on the processing

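The count of 22 calls fell to 0 with only the AgNP and control arrays (1833 at an unadjusted p under 0.05) and to 0 with the methods' t-test (950 at an unadjusted p under 0.05). It was 42 with a mean of at least 5 (20 of the 22 kept, 12906 tested), 4 with all probe sets, 12 with centred arrays (8 higher, 4 lower) and 5 with AgNP replicate 1 and control replicate 3 left out together. With trended and robust priors, and with array weights, it was 32, all 22 kept. With 1 array left out it ran between 3 and 36. The 115 probe sets past 1.5-fold became 72 with a mean of at least 5, 525 with all probe sets (41345 tested) and 73 with the methods' t-test, ran between 111 and 169 with 1 array left out, and were split 58 higher and 59 lower when centred, against 45 and 70. The 10 of the 22 calls that passed the test of AgNP minus Ag+ became 5 with all probe sets and 4 with both arrays left out, and ran between 4 and 9 with 1 array left out. With all probe sets or a mean of at least 5 the number tested differs, and elsewhere the cause was not tested. The labels' replicate numbers were not shown to pair the samples (correlations of deviations 0.233, -0.056 and 0.121), but some marker sets followed them. Summed pluripotency markers (log2) fell from replicate 1 to 3 with AgNPs (9.898, 9.121, 8.934), with Ag+ (9.173, 8.865, 8.683) and in controls (9.505, 9.277, 8.581). Visceral endoderm sums fell in the same order, and sums for other cell types rose. The streak, paraxial, cardiac and neural sums kept no order common to the 3 groups. The cardiac sums did rise from replicate 1 to 3 with AgNPs (8.737, 8.921, 9.14) and in controls (9.535, 9.836, 9.93), but not with Ag+ (8.113, 8.12, 8.013). A replicate block gave 20 calls, 14 of them among the 22, and 2414 probe sets at an unadjusted p under 0.05, against 2140 without it. Values identical to every deposited digit on at least 2 AgNP or 2 control arrays occurred in 25.5% of named probe sets, and among called genes in Fgf14 and Slc38a4. With 3 arrays a group, precision is limited, and the more so at low signal. Of the genes named, none called changed sign, and these uncalled ones did: with array weights Dnajb1 (0.039), Esrrb (0.0017), Mdm2 (0.033), Nanog (-0.032), Nppc (0.017), with centred arrays Dnajb1 (0.028), Gpx3 (0.018), Mdm2 (0.00929), Mtf1 (0.018), Nppc (0.0012) and with both arrays left out Dnajb1 (0.020), Esrrb (0.19), Mdm2 (0.15), Mesp1 (-0.070), Nanog (-0.59), Nppc (0.10), Nqo1 (0.074). With 1 array left out, the uncalled genes whose sign varied were Dnajb1 (-0.078 to 0.060), Esrrb (-0.14 to 0.097), Gpx3 (-0.031 to 0.0070), Gpx4 (-0.0058 to 0.045), Hsp90aa1 (-0.083 to 0.0017), Mdm2 (-0.079 to 0.070), Mesp1 (-0.12 to 0.18), Mt3 (-0.040 to 0.062), Mtf1 (-0.038 to 0.018), Nanog (-0.18 to 0.58), Nppa (-0.043 to 0.13), Nppc (-0.13 to 0.094), Nqo1 (-0.10 to 0.027).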
